A study of Homo sapiens with 30 samples.

Results

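Cassette exons, which a cell can either join into an mRNA or skip, were compared here where they were included more often in the second arm than in the first arm of the deposited day 8 (D8) splicing table of Hues6 human embryonic stem cells differentiated to cardiomyocytes. The events were chosen by 4 conditions on that table: 20 or more junction reads on average over the libraries of either arm, a mean inclusion level at least 0.2 higher in the second arm, all 3 second-arm libraries above all 3 first-arm libraries, and, for the same event at day 0 (D0), a second-arm level that was not higher by 0.1 or more. An inclusion level estimates the share of transcripts that hold the exon, from 0 to 1, out of reads that join the exon and its flanking exons. Of 92068 events at D8, 74089 had enough reads, 400 of these met the conditions on D8 (0.540%), and 124 of the 400 were left out for their D0 difference. The remaining 276 events cover 255 exons of 222 genes. Of the 276, 38 are absent from the D0 table and stayed in. The D0 condition is one-sided, and 27 of the 276 had a D0 difference of -0.1 or lower. Both the D8 levels and the D0 difference chose the events, so those values are given as a description without a test.

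The study sequenced poly(A) RNA of wild-type (WT) cells and of cells labelled QKI knockout (KO) at D0 (pluripotent), D4 (cardiac progenitors) and D8 (cardiomyocytes), with 3 libraries in each of the 6 groups, and D8 nuclear RNA with 3 libraries per genotype. It also used 293T cells, a human embryonic kidney line, given 10 uM of a non-targeting siRNA (siNC) or of an siRNA against QKI (siQKI), with 3 libraries each. To start differentiation, WT cells were given CHIR, which turns on WNT signalling by blocking GSK3, at 1.5 uM, and KO cells at 1.25 uM. Both also received 1.5 ng/mL BMP4, followed by the WNT secretion inhibitor C59 at 100 nM. After D0 the genotype and the CHIR dose cannot be told apart. The labels name no clone and do not say whether libraries are separate cultures, so the p-values reflect only how these libraries spread, which may be technical. Junction reads summed over the table came to 57647929 to 83945661 per library at D8, 22216683 to 29823620 at D4 and 10033923 to 15726125 in 293T.

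QKI is an RNA-binding protein of the STAR family. It binds ACUAA-type sites in introns, mostly promotes inclusion of exons upstream of its site and skipping of exons downstream of it, and is known for control of muscle and cardiac splicing. Short in-frame exons of cytoskeletal, calcium-handling and membrane-traffic proteins are a typical target of tissue-specific splicing, since they change a protein without ending its reading frame.

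The exon sequences below show coding exons that the results turn on: MEF2D, CAMK2D and CLTB for their size of difference at D8, EHBP1, MYH10 and DYNC1I2 for their D4 result, and KALRN and NDRG2 for going the other way at D4. They are GENCODE v29 transcript sequences (GRCh38), matched to the hg19 events by gene identifier and by the lengths of the exon and both introns, 5′ to 3′, with the last 3 exonic bases, which form part of the 5′ splice site, in capitals.
MEF2D, chr1:156476494-156476514, minus strand: actgaggaccatttagatCTG
CAMK2D, chr4:113502936-113502977, minus strand: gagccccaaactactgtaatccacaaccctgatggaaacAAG
CLTB, chr5:176396479-176396532, minus strand: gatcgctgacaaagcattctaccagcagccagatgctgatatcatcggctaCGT
EHBP1, chr2:62987931-62988038, plus strand: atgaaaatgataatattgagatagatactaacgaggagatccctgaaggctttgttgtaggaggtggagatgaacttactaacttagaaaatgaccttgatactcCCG
MYH10, chr17:8576643-8576672, minus strand: caggaatcgcctaaaccagtgaaacacCAG
DYNC1I2, chr2:171712767-171712826, plus strand: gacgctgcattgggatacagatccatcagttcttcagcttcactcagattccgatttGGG
KALRN, chr3:124637208-124637303, plus strand: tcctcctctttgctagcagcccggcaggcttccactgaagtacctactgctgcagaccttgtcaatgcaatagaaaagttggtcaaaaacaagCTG
NDRG2, chr14:21022864-21022905, minus strand: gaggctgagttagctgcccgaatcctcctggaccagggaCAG

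The splicing tables do not name their arms. QKI's own exon of 117 nucleotides (hg19 chr6:163899812-163899928) had inclusion levels of 1.00, 1.00 and 1.00 in the first arm at D8 and of 0.137, 0.119 and 0.131 in the second arm, in the event with a mean of 1782 and 942 junction reads. In the event of the same exon with the most reads, which has other flanking exons, the means were 0.998 and 0.976. In 293T the means were 0.981 and 1.00, over 61 and 12.3 reads, so there this exon was not lower in the second arm. All QKI events in 293T had fewer reads in the second arm. Its libraries nevertheless held more junction reads in all (15170127 to 15726125, beside 10033923 to 13371899 in the first arm). In gene counts, QKI was lower in the KO libraries at D0 (39.4 ± 3.3 CPM against 293 ± 7.4 in WT, SD, n = 3) and overlapped at D8 (329 to 340 CPM in KO and 285 to 368 in WT). Among the 100 genes with the largest labelled change at D8, the ratio of junction reads between second and first arm had the sign of KO against WT in 100. The arms are still called first and second here, as the tables leave them.

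Over the 276 events, the D8 difference ran from 0.2 to 0.841 with a median of 0.278. It lay between 0.2 and 0.3 for 170 events, between 0.3 and 0.5 for 78, and at 0.5 or more for 28. The first arm held 51 events at a level of 0.1 or lower, and the second arm 62 events at 0.9 or higher. The SD between the 3 libraries had a median of 0.0464 in the first arm and 0.05 in the second. In the authors' deposited table, 258 of the 276 had an FDR under 0.05. That FDR rests on the same D8 reads that chose the events, so it adds no separate support. Just inside the difference threshold stood an exon of CTNND1 (182 nucleotides, difference 0.2) and one of SULF2 (54 nucleotides, 0.201). Just outside stood STX16 (152 nucleotides) and TSC22D2 (72 nucleotides), both at 0.1997. The exons are not all independent: 30 of the 255 share a splice site with another, in 16 genes.

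The largest D8 difference was in AFTPH, which encodes aftiphilin, a clathrin adaptor partner. Its exon of 84 nucleotides was at 0.018, 0.079 and 0.035 in the first arm and at 0.855, 0.846 and 0.953 in the second (a mean of 33.3 and 90.3 reads). Inclusion was rare in the first arm and usual in the second. The exon of 21 nucleotides of MEF2D, a muscle transcription factor, was at 0.090, 0.095 and 0.038 in the first arm and at 0.818, 0.818 and 0.899 in the second. This is the short exon of the beta region, which is known to be used in muscle and brain. A short exon of RYR1, the skeletal muscle calcium release channel (18 nucleotides), was at 0.105, 0.045 and 0.000 in the first arm and at 0.790, 0.679 and 0.884 in the second, over only 24 and 30 reads. CAPN3, a muscle protease, had an exon of 18 nucleotides at 0.258, 0.301 and 0.263 in the first arm and at 0.992, 1.00 and 0.99 in the second. Other exons among the 12 largest differences were in RBFOX2, PALM2-AKAP2, NAV2, SORBS2, COL4A5, MAST4 and EHBP1, with differences of 0.615 to 0.685.

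**Figure D1:**
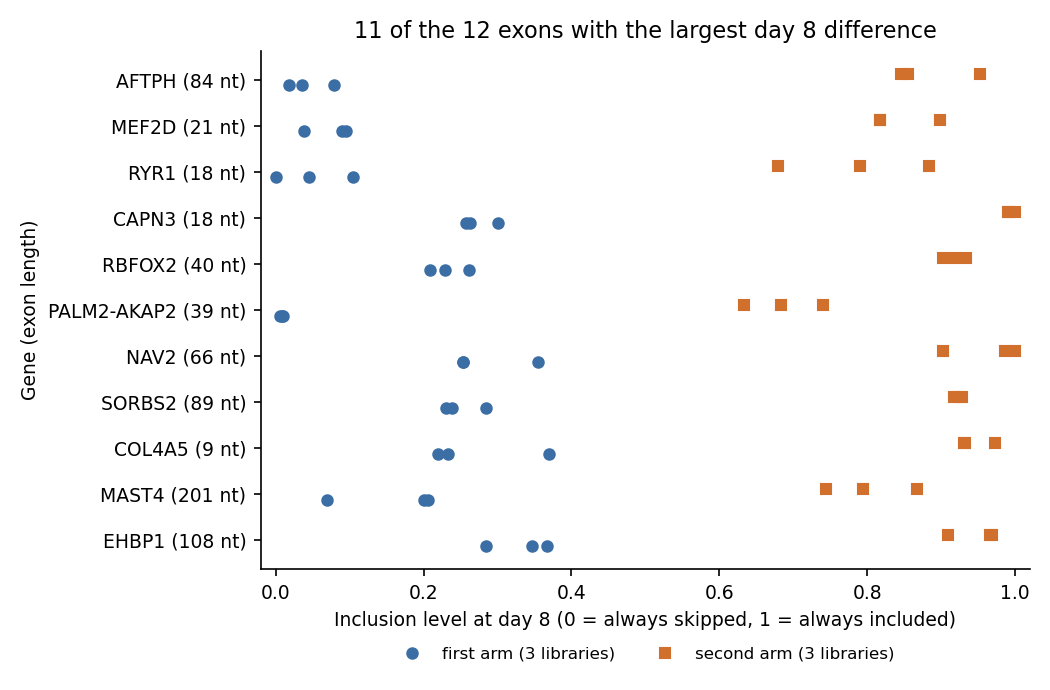
Inclusion level at D8 in each of 3 libraries per arm for 11 of the 12 exons with the largest difference, first arm as circles and second arm as squares. Since the events were chosen for not overlapping, the gap itself is no test; the plot shows the size, with AFTPH from 0.018 to 0.079 in the first arm and 0.846 to 0.953 in the second.

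Among transcription and chromatin genes, 4 exons were members. Beside MEF2D they were an exon of 117 nucleotides in PBRM1, a subunit of the PBAF remodelling complex (0.257, 0.3 and 0.118 in the first arm, 0.556, 0.760 and 0.592 in the second), one of 189 nucleotides in BPTF, of the NURF complex (difference 0.240), and one of 36 nucleotides in MTA1, of the NuRD complex (difference 0.209). The D0 difference of the BPTF exon was -0.13.

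In the list of splicing regulators, members lay in RBFOX2, RBFOX1 and TNRC6A (4 exons). RBFOX proteins bind GCAUG and regulate exons of muscle and neurons, while TNRC6A, though in this list, is a scaffold of miRNA silencing. The RBFOX2 exon of 40 nucleotides was at 0.209, 0.229 and 0.262 in the first arm at D8 and at 0.934, 0.903 and 0.918 in the second. At D0 its level was between 0.992 and 1.00 in all 6 libraries. Between D0 and D8 the first-arm mean differed by -0.76, and the second arm stayed within 0.1 of its D0 level. A flank in this event is an RBFOX2 exon of 43 nucleotides that was lower in the second arm at D8. That flank was at 0.334, 0.307 and 0.224 in the first arm and at 0.016, 0.019 and 0.023 in the second. The levels of the exon of 40 nucleotides therefore need not be its share of all RBFOX2 transcripts. The RBFOX1 exon of 93 nucleotides was at 0.437, 0.473 and 0.431 in the first arm and at 0.806, 0.873 and 0.910 in the second.

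In the list of muscle and cytoskeletal genes, 21 exons of 17 genes were members, with differences of 0.213 to 0.463. The ACTN1 exon of 66 nucleotides, in alpha-actinin, which crosslinks actin, was at 0.053, 0.057 and 0.044 in the first arm and at 0.347, 0.424 and 0.456 in the second. The most read event was in TPM1, the thin filament tropomyosin. Its exon of 76 nucleotides was at 0.625, 0.493 and 0.412 in the first arm and at 0.7, 0.756 and 0.797 in the second, over a mean of 45437 and 30338 reads. The D0 difference of the TPM1 exon was -0.12. SVIL, encoding the actin-binding supervillin, had an exon of 48 nucleotides at 0.696, 0.689 and 0.575 against 0.884, 0.915 and 0.917. CALD1, which encodes caldesmon, had an exon of 78 nucleotides at 0.018 to 0.033 against 0.202 to 0.270.

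In the list of calcium handling and channel genes, 8 exons of 6 genes were members. The ATP2B4 exon of 178 nucleotides, in a plasma membrane calcium pump, was at 0.322, 0.239 and 0.134 in the first arm and at 0.761, 0.862 and 0.829 in the second. The CAMK2D exon of 42 nucleotides, in calcium/calmodulin kinase II delta, the main cardiac isoform, was at 0.257, 0.259 and 0.196 against 0.619, 0.711 and 0.695. At D0 and D4 that CAMK2D exon was at 0.012 or lower in all 12 libraries. A further kinase exon, of 63 nucleotides in CAMK2G, was at 0.039 to 0.064 against 0.307 to 0.421. The ATP2A2 exon of 61 nucleotides, in the sarcoplasmic reticulum calcium pump, was at 0.011 to 0.019 against 0.348 to 0.455. An exon of 104 nucleotides in CACNA1C, the cardiac L-type calcium channel (hg19 chr12:2614008-2614111), was at 0.455, 0.640 and 0.719 against 0.873, 0.922 and 0.944. Another CACNA1C exon of 104 nucleotides (hg19 chr12:2613602-2613705) was also a member, so the gain was not confined to 1 of these exons.

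In the list of adhesion and junction genes, 16 exons of 10 genes were members. SORBS2, an adaptor at actin and Z-disc structures, had an exon of 89 nucleotides at 0.230, 0.239 and 0.284 in the first arm and at 0.918, 0.926 and 0.929 in the second. Of 4 CTNND1 exons, in p120-catenin, which holds cadherins at the membrane, the one of 18 nucleotides was at 0.486, 0.376 and 0.309 against 0.690, 0.744 and 0.770. The events of the other CTNND1 exons differed by 0.2 to 0.256. ABLIM1, ART5, COL13A1 and R3HDM1 had 3 member exons each.

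In the list of vesicle traffic genes, 13 exons of 11 genes were members. The CLTB exon of 54 nucleotides, in a clathrin light chain whose insert is known from neurons, was at 0.037, 0.048 and 0.033 in the first arm and at 0.525, 0.577 and 0.621 in the second. EXOC7, an exocyst subunit, had an exon of 93 nucleotides at 0.261, 0.230 and 0.168 against 0.486, 0.622 and 0.632. The SEC31A exon of 78 nucleotides, in a coat protein of vesicles leaving the endoplasmic reticulum, was at 0.801, 0.778 and 0.698 against 0.973, 0.981 and 0.985, and it was also called higher at D4. A pair of ABI2 exons that share a splice site (183 and 84 nucleotides), in an actin regulator, differed by 0.307 and 0.279. In the list of kinases and signalling genes, 8 exons of 8 genes were members, among them those of TSC2 (129 nucleotides, 0.381), MAP2K7 (48 nucleotides, 0.333), WNK1 (459 nucleotides, 0.314), PTPRK (36 nucleotides, 0.314) and CSNK1G3 (24 nucleotides, 0.293).

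Members made up 2.80% of the exons with enough reads in the muscle and cytoskeletal list, 3.69% in the calcium list, 3.07% in the adhesion list and 2.53% in the traffic list, beside 0.452% over all 56417 exons. The share was 1.28% in the kinase list, 0.7% in the list of splicing regulators and 0.630% among chromatin and transcription genes. The lists were written with earlier results of these data known, so these shares describe the members and support nothing further.

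Levels at D0 were available with enough reads for 225 events. The rule fixes that the second arm moved up relative to the first between D0 and D8 in each of them. The counts by arm below therefore only describe the events, and the effective lengths used for levels also differ between D0 and D8. In 88 of them the first arm was within 0.1 of its D0 level and the second arm was higher at D8 than at D0 by at least 0.1, and in 87 both arms were higher. In 31 the first arm was lower at D8 than at D0 by at least 0.1 while the second arm stayed within 0.1 of its D0 level. Another 16 had the first arm lower and the second arm higher. At D0 the first-arm level was 0.2 or lower in 118 events and 0.8 or higher in 32. ATP5C1, whose exon of 37 nucleotides in the gamma subunit of ATP synthase is known to be skipped in heart and muscle, belongs to the events in which the first arm was lower. Its D0 levels were 0.961, 0.958 and 0.972 in the first arm and 0.995, 0.991 and 0.996 in the second. At D8 they were 0.242, 0.350 and 0.396 in the first arm and 0.925, 0.936 and 0.956 in the second. ABLIM1, an actin-binding LIM protein, had exons of 147 and 141 nucleotides above 0.96 in all D0 libraries, and at 0.534 to 0.699 in the first arm and 0.956 to 0.987 in the second at D8. These 2 ABLIM1 exons share a splice site. RSG1, which encodes a small GTPase, had an exon of 125 nucleotides at 0.934, 0.818 and 1.00 in the first arm at D0 and at 0.577, 0.537 and 0.433 in the second, a difference of -0.402. At D8 the RSG1 levels were 0.664, 0.528 and 0.488 in the first arm and 0.794, 0.798 and 0.769 in the second. The arms of RSG1 are thus in opposite order at D0 and D8, over 29 to 30 reads at D0. CYB561D1 had an exon of 104 nucleotides at 0.47, 0.496 and 0.553 in the first arm at D0 and at 0.192, 0.115 and 0.176 at D8, where the second arm was at 0.689, 0.362 and 0.4.

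**Figure D2:**
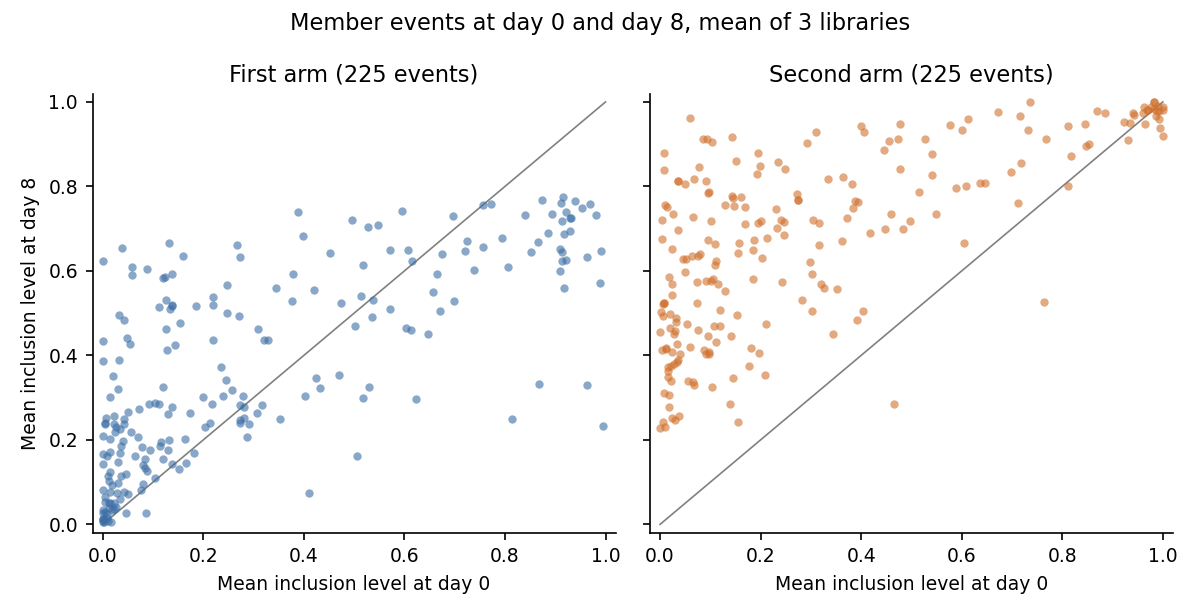
Mean inclusion level at D8 against D0 for the 225 events with enough reads at both days, first arm left and second arm right, with the line of equal level. In the second arm 2 events lie below the line by 0.1 or more. The first arm has those 2, the 31 whose second arm stayed within 0.1 of its D0 level and the 16 whose second arm was higher. The rule favours falls in the first arm over falls in the second, so this contrast is no test.

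D4 libraries were not used by the rule, so their values can be tested. Of 217 events with a mean of at least 10 reads in each arm at D4, 34 were called higher in the second arm (15.7%) at an FDR under 0.05 in the authors' deposited table and a difference of at least 0.1. Over all 58983 D4 events with enough reads the share was 0.556%. In the other direction 5 of 217 were called (2.30%), beside 0.539% of all events. The median D4 difference was 0.0307 for the members and 0.0003 for all events, and 149 of the 217 differed by less than 0.1. The 34 events cover 32 exons of 28 genes. In 33 of the 34 events all second-arm libraries stood above all first-arm libraries. The conditions of the call favour such a gap, and its share was not counted over all events called. With limma on the logit of the levels per library, a stricter test at 3 libraries per arm, 8 of the 217 were called higher and 0 lower, while 37 events were called in each direction over the whole table. Leaving out 1 library at a time, that limma count was 4 to 10, and it was lowest without the second library of the second arm.

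EHBP1, an adaptor between endosomes and actin, had the largest D4 difference. Its exon of 108 nucleotides was at 0.361, 0.399 and 0.429 in the first arm and at 0.935, 0.957 and 0.964 in the second at D4 (authors' FDR listed at 0). At D8 the levels were 0.347, 0.284 and 0.367 in the first arm and 0.969, 0.966 and 0.909 in the second. The AKAP9 exon of 141 nucleotides, in a kinase-anchoring protein of centrosome and Golgi, was at 0.286, 0.138 and 0.184 in the first arm at D4 and at 0.774, 0.736 and 0.750 in the second. COBLL1, an actin regulator, had an exon of 117 nucleotides at 0.208, 0.064 and 0.032 against 0.444, 0.422 and 0.745 at D4. The second-arm libraries of COBLL1 vary more than those of EHBP1. PHLDB1 had an exon of 130 nucleotides at 0.3, 0.415 and 0.375 against 0.752, 0.697 and 0.701.

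MYH10 encodes nonmuscle myosin heavy chain IIB. Its exon of 30 nucleotides was at 0.172, 0.196 and 0.249 in the first arm at D4 and at 0.495, 0.571 and 0.478 in the second. The BIN1 exon of 108 nucleotides, in a membrane-bending protein of muscle T-tubules, was at 0.445, 0.565 and 0.415 against 0.790, 0.739 and 0.781 at D4. The BHLHB9 exons of 79 and 95 nucleotides share a splice site and were at 1.00 in all second-arm libraries at D4, over 12 to 24 reads. The ATP5C1 exon was also called higher at D4, at 0.865, 0.832 and 0.774 against 0.996, 0.998 and 0.999. The MEF2D, CAMK2D and RBFOX2 (40 nucleotides) exons, with some of the larger D8 differences, were not called at D4 and differed there by 0.022, 0.004 and 0.042.

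**Figure D3:**
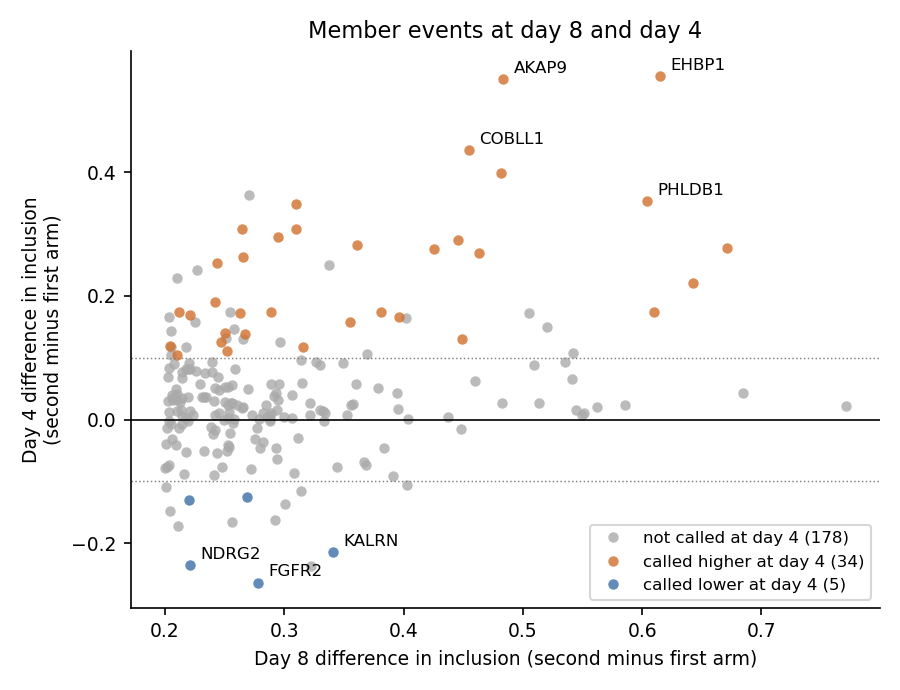
Difference in inclusion (second minus first arm) at D4 against D8 for 217 member events, coloured by the D4 call, with dotted lines at the D4 call size of 0.1. The 34 orange events were called higher at D4, the 5 blue events lower, and most grey events lie near 0 at D4.

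The 5 events called lower at D4 were chosen at D8 for the opposite sign. FGFR2, a fibroblast growth factor receptor, has alternative exons IIIb, used in epithelia, and IIIc, used in mesenchyme. The member exon of 145 nucleotides was at 0.722, 0.724 and 0.740 in the first arm at D4 and at 0.509, 0.380 and 0.506 in the second, and at D8 at 0.249, 0.294 and 0.203 against 0.469, 0.637 and 0.474. NDRG2 had an exon of 42 nucleotides at 0.579, 0.549 and 0.501 against 0.3, 0.293 and 0.330 at D4, and its D0 difference was -0.314. KALRN, encoding kalirin, a guanine nucleotide exchange factor, had an exon of 96 nucleotides at 0.434, 0.290 and 0.412 against 0.167, 0.104 and 0.221 at D4 (authors' FDR 0.040). SIRT2 (47 nucleotides, -0.13) and GRAMD3 (43 nucleotides, -0.125) are the others, and GRAMD3 was named after its values were seen. The limma test called 0 of the members lower at D4 (6 at an unadjusted p under 0.05).

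In 293T cells, 124 events had enough reads and 7 were called higher in the second arm (5.65%), beside 0.273% of all 45021 events. A single event was called lower (0.810%), beside 0.175% of all. The median difference was 0.0075, and 99 of the 124 differed by less than 0.1. The limma test called 1 of the 124 higher (2 without the first library of the first arm and 0 without the third) and 0 lower (1 lower at an unadjusted p under 0.05). The MTA1 exon of 36 nucleotides had the largest difference, at 0.538, 0.599 and 0.547 in the first arm and at 0.915, 0.887 and 0.901 in the second. The ERBB2IP exon of 129 nucleotides, in a scaffold of the basolateral membrane also known as erbin, was at 0.606, 0.790 and 0.714 against 1.00, 0.941 and 1.00. The TSC2 exon of 129 nucleotides, in the tuberin subunit of the mTORC1 inhibitor, was at 0.167, 0.2 and 0.181 against 0.407, 0.462 and 0.370. The MAP2K7 exon of 48 nucleotides was at 0.107, 0.089 and 0.116 against 0.279, 0.329 and 0.266. MEF2D was at 0.000 in all first-arm libraries and at 0.092, 0.081 and 0.163 in the second (authors' FDR 0.013), over 17 and 28 reads.

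The events called higher both at D4 and in 293T numbered 4. The DYNC1I2 exon of 60 nucleotides, in an intermediate chain of cytoplasmic dynein, was at 0.057, 0.058 and 0.057 in the first arm at D4 and at 0.329, 0.316 and 0.354 in the second. In 293T its levels were 0.021, 0.012 and 0.000 in the first arm and 0.178, 0.123 and 0.144 in the second. The others are the TSC2 exon and the ERBB2IP exons of 129 and 207 nucleotides, which share a splice site. The ARHGEF11 exon of 96 nucleotides went the other way in 293T, at 1.00, 1.00 and 0.938 against 0.770, 0.904 and 0.830.

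Of the 222 host genes, 28 also held an exon that was lower in the second arm at D8 by the mirror of the same rule, and in 10 of these the lost exon flanked the gained one. By that mirror rule, 193 of the 74089 D8 events with enough reads were lost. The share of all genes with a lost exon was not counted, so the 28 only describe the host genes. SNAP25, a membrane fusion protein, has a pair of alternative exons of 118 nucleotides each. The gained one was at 0.029, 0.027 and 0.000 in the first arm and at 0.393, 0.450 and 0.506 in the second, and the lost one at 0.953, 0.933 and 1.00 against 0.2, 0.342 and 0.268. In ACTN1 the exon of 66 nucleotides was gained and a neighbour of 81 nucleotides was at 0.744, 0.823 and 0.797 against 0.240, 0.245 and 0.180. In ACTN2, the sarcomeric alpha-actinin, both exons have 86 nucleotides. The gained ACTN2 exon was at 0.001 to 0.002 in the first arm and 0.233 to 0.328 in the second, and the lost one at 0.999 to 1.00 against 0.694 to 0.723. In FGFR2 the exon of 148 nucleotides was at 0.526, 0.613 and 0.668 against 0.370, 0.145 and 0.214. TEAD3, a Hippo pathway transcription factor, had 2 exons of 63 nucleotides, at 0.15 to 0.257 against 0.411 to 0.555 for the gained one and 0.403 to 0.569 against 0.248 to 0.316 for the lost one. Where a gained exon has a lost exon as its flank, its skipping reads come only from transcripts with that flank. Its inclusion reads at the junction with the other flank can also come from transcripts without the lost exon. The levels in a pair therefore need not add up to 1.00 or equal the share of all transcripts.

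**Figure D4:**
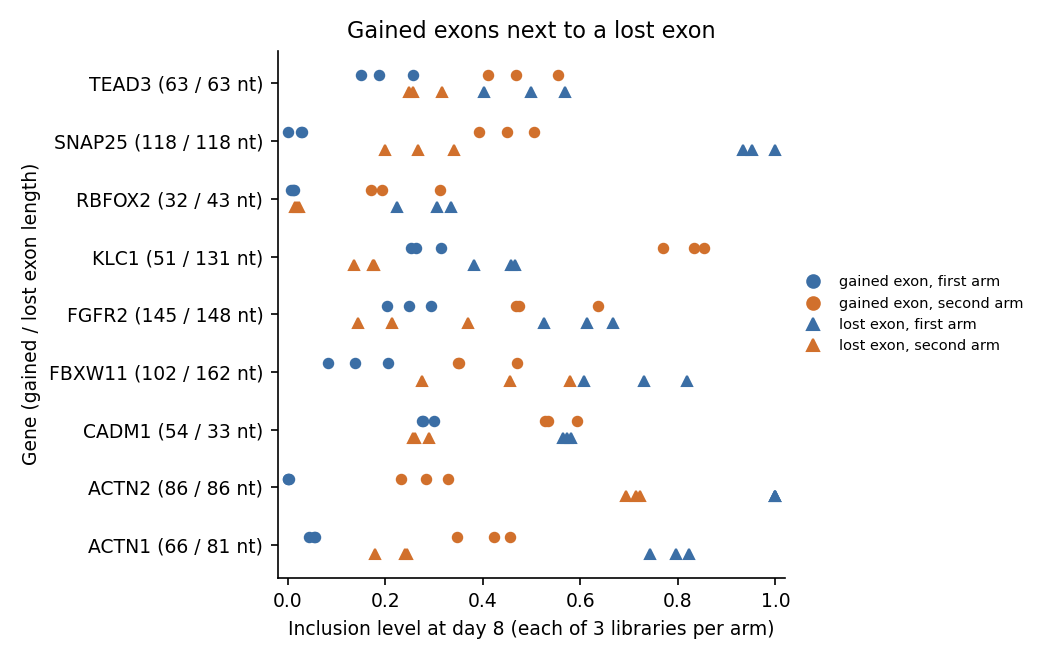
D8 inclusion levels in each of 3 libraries per arm for 9 of the 10 genes in which a lost exon (triangles) flanks the gained one (circles), first arm in blue and second arm in orange. The labels give both lengths, and in SNAP25 the gained exon lies at 0.506 or lower and the lost exon of the first arm at 0.933 or higher.

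Exon length was not used by the rule. Of the 255 exons, 164 had a length that is a multiple of 3 (64.3%), beside 40.2% of all D8 exons with enough reads and 45.1% of those whose mean level lay between 0.05 and 0.95 in an arm. Exons of 27 nucleotides or shorter numbered 23 (9.02%), beside 1.27% and 2.51%. The shortest, of 6 nucleotides, were in CLEC16A, HOOK3 and NSFL1C, and others were in COL4A5 (9), MACF1 (9) and CADPS (9). The median length was 91 nucleotides for the members and 116 for all exons. In the annotation, 203 of the 255 could be matched by their lengths (79.6%). Of these, 139 were coding, 16 partly coding, 15 untranslated, 18 in transcripts annotated to undergo nonsense-mediated decay and 15 in noncoding transcripts. Since fewer than 80% were matched, the shares over matched exons are void as a comparison and only describe those exons: 118 of the 139 coding exons were multiples of 3, and 118 of 203 ended in AG.

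Gene level is another measure than inclusion. At D8, a contrast used by the rule, 195 of 221 host genes differed between KO and WT by at most 1 on the log2 scale, 18 were above 1 and 8 below -1. These counts were not made over all genes, so they only describe the host genes. The median log2 change was 0.08 for the host genes and 0.01 over all genes. ACTN2, measured at 402 ± 94.0 CPM in the WT and 95.5 ± 9.1 CPM in the KO libraries (SD, n = 3), had the lowest log2 difference (-2.07), and RBFOX1 the highest (1.72), at 9.02 ± 2.1 and 29.8 ± 5.7 CPM. MEF2D was at 59.4 ± 6.4 CPM in WT and 97.6 ± 3.6 in KO.

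At D4, edgeR called 50 host genes higher in KO (22.6%) and 35 lower (15.8%) of 221, beside 16.3% and 12% of all genes. Of the 11076 tested genes with an exon that had enough reads, 19.2% were higher and 15.4% lower, so the host genes are near that background. The split moved with the scaling: with total counts it was 61 higher and 21 lower, and with DESeq2 45 and 42. COBLL1, at 11.3 CPM in WT and 27.5 in KO, was higher by 1.28 on the log2 scale (SE 0.12, edgeR adjusted p = 4.4e-08), and NIN, a centrosome protein, was lower (log2 -1.14, SE 0.08, edgeR adjusted p = 1.73e-09). Both were singled out after their values were seen. BIN1 rose by 0.94 (SE 0.07, edgeR adjusted p = 3.05e-09).

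Between D0 and D8 in WT, 128 host genes were higher at D8 (57.9%) and 49 lower (22.2%), beside 44.5% and 37.5% of all genes and 45.7% and 41.1% of the genes with enough reads. The D8 read minimum favours genes expressed at D8. TPM1 rose by 4.38 (SE 0.09, edgeR adjusted p = 8.48e-20) and CAMK2D by 1.68 (SE 0.09, edgeR adjusted p = 2.37e-13), while EHBP1, ATP5C1 and DYNC1I2 were not called (log2 -0.03, -0.12 and -0.09).

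In D8 nuclear RNA, 179 of 219 host genes were higher in KO (81.7%) and 10 lower (4.57%), beside 31.2% and 32.8% of all genes. Of 11037 genes with an exon that had enough reads, 68.8% were higher and 8.16% lower. Scaling by total counts instead of TMM, which moved the median of all genes from -0.27 to -0.72 on the log2 scale, split the host genes into 124 higher and 24 lower. Their median was 0.85 with TMM and 0.39 with total counts. RBFOX2 was higher by 1.74 (SE 0.15, edgeR adjusted p = 6.33e-11) with TMM.

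Levels of cell type markers differed between WT and KO at D8. The summed level of 14 cardiomyocyte markers was 10480 to 18210 CPM in WT and 28730 to 34130 in KO. That of 12 surface ectoderm and amnion markers was 1301 to 2207 CPM in WT and 354 to 392 in KO, and that of 12 epithelial markers 5661 to 7490 and 3467 to 3918. Pluripotency markers (9) summed to 1435 to 1893 CPM in WT and 590 to 686 in KO. Sums were higher in KO for endothelial markers (317 to 382 CPM in WT and 649 to 716 in KO), smooth muscle and fibroblast markers (1227 to 1431 and 1956 to 2237) and endoderm markers (166 to 243 and 331 to 482). Neural markers summed to 9.24 to 11.2 CPM in WT and 4.9 to 7.33 in KO. The WT and KO ranges were apart at D8 in all 8 lists. A sum can follow a few abundant genes. Markers above 1 and below -1 on the log2 scale numbered 8 and 1 of 14 cardiomyocyte and 0 and 6 of 12 epithelial. They were 0 and 11 of 12 for surface ectoderm and amnion, and 1 and 6 of 9 for pluripotency. For endothelial they were 1 and 0 of 7, and for smooth muscle and fibroblast 2 and 1 of 10. For endoderm they were 2 and 0 of 8, and for neural 1 and 1 of 5. Every marker had a measured level except 1 of 8 endothelial and 3 of 8 neural markers.

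At D4, the comparison in which the members were tested, the cardiomyocyte sum overlapped (140 to 176 CPM in WT and 160 to 246 in KO), and the other 7 lists were apart. Endothelial markers summed to 202 to 238 CPM in WT and 441 to 495 in KO, and 6 of 7 rose by edgeR. Endoderm markers summed to 99.2 to 111 CPM in WT and 257 to 276 in KO, and 7 of 8 rose. The epithelial sum (3189 to 3299 CPM in WT and 3765 to 4041 in KO) and the surface ectoderm and amnion sum (198 to 233 and 280 to 287) were higher in KO at D4 and lower in KO at D8. Of the 12 surface ectoderm and amnion markers, 2 rose and 5 fell at D4, so the sum and the count differ in direction. The pluripotency sum (2600 to 2881 CPM in WT and 2202 to 2224 in KO) and the smooth muscle and fibroblast sum (1210 to 1410 and 925 to 1101) were lower in KO. The neural sum (8.13 to 9.88 and 14.9 to 17.4) was higher, although 2 of 5 neural markers rose and 2 fell (median log2 -0.44). By edgeR, 5 rose and 2 fell of 14 cardiomyocyte markers, and 5 and 2 of 12 epithelial markers. For pluripotency 1 rose and 5 fell of 9, and for smooth muscle and fibroblast 3 and 4 of 10. The part of these markers in the D4 and D8 inclusion differences was not tested, and in bulk RNA fewer cells of a type and less RNA per cell cannot be told apart. TFAP2A, DLX5, GABRP and VTCN1 of the amnion list had the largest D8 differences among markers in whole-cell RNA (log2 -6.89 to -5.59). In D8 nuclear RNA with TMM these 4 genes were also lower in KO, but by less (log2 -1.05, -1.04, -1.71 and -1.41). GABRP, for example, averaged 3.16 CPM in whole-cell KO and 151 CPM in nuclear KO libraries.

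Splicing regulators that bind other sites also differed at D8. The epithelial regulators ESRP1 and ESRP2, known to favour FGFR2 exon IIIb, were at 101 to 122 CPM and 23.0 to 37.2 CPM in WT and at 36.6 to 51.4 and 11 to 13.1 in KO. At D4, where the FGFR2 exon of 145 nucleotides was lower in the second arm, ESRP1 measured 71.3 ± 8.8 CPM in the WT and 74.7 ± 1.8 CPM in the KO libraries (SD, n = 3) and was not called (edgeR adjusted p = 0.683). ESRP2 measured 39.4 ± 7.7 CPM in the WT and 33.1 ± 0.22 CPM in the KO libraries at D4 and was not called either (edgeR adjusted p = 0.173). RBFOX1 was higher and MBNL3 lower at D8 in whole-cell RNA (log2 1.72 and -1.57). In D8 nuclear RNA with TMM, MBNL3 was instead higher in KO (log2 0.86, edgeR adjusted p = 1.29e-05), and RBFOX1 was higher too (0.63). ESRP1 and ESRP2 were at 0.06 and -0.40 there. The nuclear median over genes with an exon that had enough reads was 0.62. The part of these regulators in the inclusion differences was not tested. At D4, of 75 measured splicing regulators, 6 rose and 17 fell in KO by edgeR (6 and 10 with total counts, 5 and 25 with DESeq2), with a median log2 change of -0.10 beside 0.00 over all genes. Over all genes, 16.3% were called higher and 12% lower. In the calcium handling and channel list 15 of 34 genes rose and 2 fell (16 and 2 with total counts). Of 72 muscle and cytoskeletal genes 15 rose and 20 fell (17 and 13), of 54 adhesion genes 18 and 10 (20 and 6), and of 59 vesicle traffic genes 12 and 11 (16 and 2). Of 66 chromatin and transcription genes 5 rose and 12 fell (7 and 7), and of 78 kinase and signalling genes 9 and 15 (13 and 8). Each pair in parentheses is with total counts, and in the muscle and kinase lists it turned the majority of calls from lower to higher.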

How the data were processed

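Per the submitters' processing notes, reads were handled with UMI-tools, cutadapt, STAR, featureCounts and DESeq on hg19. Versions of these tools and of rMATS: not given in the sources used here. Deposited by the authors were read counts per gene for 18 whole-cell libraries (40001076 to 89948185 counts) and 6 nuclear libraries (6549676 to 15030590), and 4 skipped-exon tables in rMATS format with junction read counts, inclusion levels, a p-value and an FDR for each event. Each table compares unnamed arms of 3 libraries; values are given as second minus first. The effective lengths used for levels differ between the D0 and 293T tables and the others, so levels of different days are set side by side without a test.

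Gene counts were fitted with edgeR 4.0.16 in R 4.3.3 (filterByExpr, TMM, quasi-likelihood, Benjamini-Hochberg, threshold 0.05, two-sided), with all 18 whole-cell libraries in 1 fit and the 6 nuclear ones in another. CPM use TMM-scaled totals. The background of genes with an exon that had enough D8 reads was added after the values were seen. DESeq2 1.42.0 and limma 3.58.1, on logit levels bounded at 0.01 and 0.99, were alternatives; 1 D4 event with a missing level was left out of limma. The scripts were tested on simulated data. The exons of 1 host gene enter the counts and are not reported here by name.

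The members and lists were chosen with earlier results of these data known. Named were the 12 exons with the largest D8 difference, the 8 and 6 with the largest called D4 and 293T difference and at most 4 called the other way, at most 5 exons per list, the 8 with the largest fall of the first-arm level from D0 to D8, those at the threshold, genes with 3 or more member exons, QKI, and of the marker and regulator lists the 4 genes with the largest D8 change.

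Same-numbered replicates did not deviate together (correlations of -0.17 to 0.04), so the numbers are not taken to pair the samples.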

Additional observations from a re-analysis of the deposited data

Results flagged for a closer look

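The events below were higher in the second arm at D8, in all 3 libraries, and lower in the other comparison, again with the libraries of the arms fully apart. The difference between the comparisons was not tested. At D4 the values were -0.264 for the FGFR2 exon of 145 nucleotides, -0.235 for the NDRG2 exon of 42, -0.215 for the KALRN exon of 96, -0.130 for the SIRT2 exon of 47 and -0.125 for the GRAMD3 exon of 43. In 293T the value was -0.145 for the ARHGEF11 exon of 96 nucleotides. Read support differed: NDRG2 had a mean of 273 and 356 junction reads per library at D4, while KALRN had 24 and 31, GRAMD3 18 and 17.7, and ARHGEF11 in 293T 29 and 28.7.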

How the results depend on the processing

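The number of member events, 276, became 451 at a difference of at least 0.15 and 106 at 0.3; it stayed within 1.5 times under the other choices. Of D4 calls, 34 higher and 5 lower became 17 and 3 at a difference of at least 0.2, and 8 and 0 with limma on logit levels (4 to 10 and 0 to 2 leaving out 1 library at a time). In 293T, 7 higher and 1 lower became 3 and 0 at a difference of at least 0.2 and 1 and 0 with limma (0 to 2 and 0 to 0 leaving out 1 library); without a read minimum the lower calls were 2. Of the 29 named calls, 6 stayed past the threshold with limma, and none changed direction under any alternative run. Host genes called lower at D4 numbered 35, and 21 with total counts; leaving out 1 replicate gave 39 to 44 higher and 24 to 32 lower. In nuclear RNA the 10 lower calls became 24 with total counts, 4 with DESeq2 and 5 without the filter, and 6 to 11 leaving out 1 replicate (164 to 186 higher); the lowest count was without KO replicate 1. WT D8 against D0 gave 125 to 130 higher and 48 to 52 lower. With the replicate block the calls were 58 higher and 37 lower at D4, 123 and 45 for WT D8 against D0, where only numbers 2 and 3 are shared and the other libraries drop out, and 174 and 8 in nuclear RNA. Splicing regulators called lower at D4 numbered 17, and 10 with total counts. Causes were not tested. Few reads limit the D4 and 293T comparisons, with 59 and 152 members short of the read minimum or absent.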
